A study of Mus musculus with 2 samples.

Results

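The 8 genes of meiotic crossover formation and mismatch repair described here, Msh4, Msh5, Mlh3, Rnf212, Ccnb1ip1, Tex11, Hfm1 and Cntd1, were followed across the germ cell stages and the somatic cells of the ovary. They were taken by symbol from the count matrices, where all 8 were found among 27998 genes, by a rule that uses symbols and no expression value. Single-cell transcripts were measured in mouse fetal ovaries at E15.5, in female embryos with a homozygous deletion of the glucocorticoid receptor (GR, encoded by Nr3c1) and in wildtype embryos. The GR deletion library (KO) came from 2 pooled embryos and the wildtype library (WT) from 4, so each genotype was measured in 1 library. The deletion came from the floxed allele Nr3c1tm1.1Jda, recombined in all cells by a Cre driven by an actin promoter. Both groups carried the transgene Tg(Pou5f1-EGFP)2Mnn, whose fluorescence marks germ cells and was used to sort them, and the strain labels of both name the Nr3c1 line. Sorted germ cells were mixed with ovarian somatic cells at 60 to 40 before capture, so the share of germ cells describes the mix.

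In mammalian females, germ cells enter meiosis in the fetal ovary and pass through prophase I before birth. During prophase, programmed DNA breaks are repaired on the homologous chromosome, and a small number of the repair intermediates become crossovers, which hold the homologs together until the oocyte divides. The proteins of this route act in order. MSH4 and MSH5, relatives of the bacterial mismatch protein MutS that have no known part in mismatch repair itself, form a heterodimer that stabilises joined DNA molecules. HFM1 is a helicase and TEX11 a scaffold-like protein, both needed for normal numbers of crossovers. RNF212 and CCNB1IP1 (also called HEI10) are RING-finger proteins that act on SUMO and ubiquitin pathways and limit stabilisation to a subset of sites. CNTD1 is a cyclin-like protein needed for the final designation of crossover sites. MLH3 is a MutL relative that belongs to the endonuclease resolving the intermediates, and it also takes part in mismatch repair outside meiosis.

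Coordinates are those of GRCm38 in the GENCODE M21 annotation. Msh4 lies on chromosome 3 from 153857149 to 153906138, Msh5 on chromosome 17 from 35028605 to 35046745, and Mlh3 on chromosome 12 from 85234520 to 85270599. Rnf212 and Hfm1 are both on chromosome 5, from 108729290 to 108774982 and from 106840192 to 106926321. Ccnb1ip1 lies on chromosome 14 from 50789248 to 50807732 and Tex11 on chromosome X from 100838648 to 101059667, and these 7 genes are on the minus strand. Cntd1 lies on the plus strand of chromosome 11 from 101279012 to 101296317. Its exons share 3104 bases with exons of Becn1 and 82 with Coa3, both on the opposite strand. The strand setting of the counting is not given in the sources used here, so reads of Cntd1 cannot be told apart from those of Becn1, an autophagy gene, and its values are uncertain. Ccnb1ip1 shares 233 exon bases with Rpph1, an RNA gene on the same strand. Of the 60-base stretches of its transcripts, 9.54% also occur in Rpph1. The share also found in other genes was 2.22% for Msh4, 0.798% for Hfm1, 0.0789% for Mlh3, and 0 for the other 4 genes.

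The 4 promoter stretches below are of genes whose transcripts separated along prophase. Those of Msh5 and Hfm1 were lower in late-prophase-like than in early-prophase-like cells, and those of Mlh3 and Rnf212 were higher. For Mlh3 the direction depended on how the stages were drawn. The choice is not complete: Ccnb1ip1 was also higher, with log2 ratios of 0.39 in WT and 0.33 in KO. Cntd1 was also lower, with −0.38 and −0.34. Neither is printed, and neither promoter held the motif marked below. Each runs from 100 bases before the transcription start to 20 bases after it, 5′ to 3′ on the strand of the gene, with the start base counted as 0. The sequences are from RefSeq on GRCm38.p6. Capitals mark matches to CNCCTCAG, the motif bound by STRA8, the transcription factor that opens the meiotic programme. The stretches lie at chr17:35046602-35046722 for Msh5, chr5:106925870-106925990 for Hfm1, chr12:85270579-85270699 for Mlh3 and chr5:108775007-108775127 for Rnf212, all on the minus strand.
Msh5: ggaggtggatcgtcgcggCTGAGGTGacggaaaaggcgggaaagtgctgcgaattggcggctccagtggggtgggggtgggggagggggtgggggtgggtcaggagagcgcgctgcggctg
Hfm1: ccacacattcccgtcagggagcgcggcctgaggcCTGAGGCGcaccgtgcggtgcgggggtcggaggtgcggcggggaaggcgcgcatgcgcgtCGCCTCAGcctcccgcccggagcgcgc
Mlh3: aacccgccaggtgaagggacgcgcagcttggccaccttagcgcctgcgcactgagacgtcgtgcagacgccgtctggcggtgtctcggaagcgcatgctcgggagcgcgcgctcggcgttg
Rnf212: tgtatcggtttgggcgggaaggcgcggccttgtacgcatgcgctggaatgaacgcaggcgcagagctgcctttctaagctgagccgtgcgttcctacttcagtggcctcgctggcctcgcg

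Of the 8 genes, 7 matched a RefSeq promoter entry of 300 bases and Tex11 did not. The STRA8 motif, searched on both strands, was present in 2 of these 7. Msh5 held 1 match at −82 to −75, on the opposite strand. Hfm1 held a match on the opposite strand at −66 to −59 and another on its own strand across the start, at −6 to 1. Of 27025 genes with an entry, 9.12% held the motif in a promoter. The E-box CACGTG was found in Rnf212 and Cntd1 (8.09% of all genes) and the E2F motif GCGGGAA in Msh5 and Rnf212 (5.29%). AGAACA, one arm of the glucocorticoid response element, was found in Mlh3 and Hfm1 and occurs in 21.3% of all genes. A match describes letters in the window and says nothing of binding.

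The libraries held 168483330 unique molecular identifiers (UMIs, one for each captured transcript) in WT and 186117981 in KO. After the filters of the study, 9045 WT cells with a median of 15685 UMIs and 15502 KO cells with a median of 10194.5 remained, of which 6805 and 10215 formed clusters called germ-like from their markers. Of the 24547 kept cells, 27 had barcodes present in both libraries. Nr3c1, the targeted gene, followed the labels: it stood at 71.8 UMIs per 1000000 UMIs of the cell group (CPM) in WT germ-like cells and 11.6 in KO, a log2 ratio of −2.63, and was also lower in KO in the 3 main somatic classes. Germ-like cells were clustered again without the 8 genes, and stages were named from marker lists. Premeiotic-like cells (150 WT, 257 KO) were led by Dnd1, Dppa3, Lin28a and Sall4. Meiotic-entry-like cells (461 WT, 1567 KO) were led by Stra8, early-prophase-like cells (1417 WT, 1905 KO) carried 7 early prophase markers, and late-prophase-like cells (2046 WT, 2242 KO) carried oocyte genes such as Sohlh1 and Lhx8. A further cluster (246 WT, 528 KO) was led by Rec8 and histone genes and was left unnamed, because Rec8 marks another stage than the premeiotic markers it also held. In it Stra8 was higher, at 1778 CPM in WT, than in meiotic-entry-like cells, at 1058. Some markers went against the names: Pou5f1, on the premeiotic list, was at 67.6 CPM in WT premeiotic-like and 61.3 in late-prophase-like cells, and Figla, on the late list, was at 223 CPM in early-prophase-like and 194 in late-prophase-like cells. Taf7l, on the late list, was at 1084 CPM in WT meiotic-entry-like and 432 in late-prophase-like cells. Spo11, on the early list, was at 95.4 CPM in WT early-prophase-like and 119 in late-prophase-like cells. Top2a, on the premeiotic list, was at 523 CPM in WT premeiotic-like and 740 in early-prophase-like cells. Sohlh1 in late-prophase-like cells was at 43.3 CPM in WT and 10.0 in KO. A cluster of 85 WT and 131 KO cells also carried somatic markers, with Fst and Kitl among its leading genes. It was left unnamed and stayed in the germ-like totals. The remaining germ-like clusters (2400 WT, 3585 KO) met no stage definition.

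With 1 library per genotype there is no replicate and no test. Values are summed UMIs of a cell group as CPM, with exact Poisson 95% intervals in brackets. Ratios have exact intervals for counts, and shares of cells have Clopper-Pearson intervals. All of these cover counting error only. A difference between KO and WT cannot be told apart from one between embryo pools, sorts or captures. Read positions near the 3′ end make levels of different genes hard to compare, so each gene is compared with itself across cells.

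The transcripts were mostly those of germ cells. In WT, the level in germ-like cells over granulosa-like cells, the supporting cells of the future follicle, was at least 2-fold (log2 ratio of 1) for 7 of the 8 genes, beside 29.2% of all genes with at least 100 UMIs. In KO it was also 7 of 8, beside 26.3% of all genes. The median log2 ratio was 3.13 in WT and 2.53 in KO, against 0.11 and 0.05 over all genes. Tex11 had the largest ratio in WT, at 127.8 CPM in germ-like cells and 10.6 in granulosa-like cells, 12.02-fold higher (10.1 to 14.4). Rnf212 followed, at 51.4 against 4.99 CPM, and Msh4, at 27.6 against 2.86. Hfm1 stood at 187 against 21.5 CPM, Ccnb1ip1 at 103.6 against 11.9 and Msh5 at 81.3 against 10.2. Cntd1 stood at 21.7 against 2.46 CPM, a log2 ratio of 3.14. The ratio of its overlapping neighbour Becn1 in the same cells was 1.07.

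Mlh3 was the exception. It stood at 40.0 CPM in WT germ-like cells (38.9 to 41.1) and at 26.6 in granulosa-like cells (23.8 to 29.7), a 1.504-fold difference (1.34 to 1.69). In theca-like cells it was at 23.2 CPM and in epithelia-like cells, which cover the ovary, at 15.3. In KO the levels were 35.5 CPM in germ-like cells and 25.1, 26.8 and 17.8 in these 3 somatic classes. Of these somatic classes the epithelia-like had the lowest Mlh3 level in both libraries. The endothelia-like, perivascular-like and immune-like classes, with 3 to 23 Mlh3 UMIs each, ranged from 8.09 to 21.7 CPM in WT and from 15.2 to 20.4 in KO. The erythroid-like class was at 32.5 CPM in WT and 31.4 in KO, but it carried much germ cell RNA, as given below.

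A low level of any germ cell transcript in somatic cells can be free RNA or mixed droplets, so the genes were set beside 8 germ cell markers (Ddx4, Dazl, Mael, Sycp3, Sycp1, Smc1b, Tex101 and Taf7l). In WT granulosa-like cells these markers stood at a median of 10.0% of their germ-like level, with a range of 8.86 to 11.9. Msh4, Rnf212, Ccnb1ip1, Hfm1 and Cntd1 lay within that range, at 9.71% to 11.5%, and Tex11 just below it at 8.32%. Msh5 was at 12.6% and Mlh3 at 66.5%. In theca-like cells the markers ranged from 14.1% to 17.6%, and Hfm1 at 18.2%, Cntd1 at 19.9%, Msh5 at 20.3% and Mlh3 at 58.0% lay above them. In epithelia-like cells they ranged from 8.93% to 10.997%, and Ccnb1ip1 at 11.1%, Msh4 at 13.3%, Cntd1 at 13.8%, Msh5 at 15.7% and Mlh3 at 38.3% lay above them. The counting intervals of Hfm1, Ccnb1ip1, Msh4 and Cntd1 reached into the range of the markers in each of these cases. The somatic level of 6 of the 8 genes was thus close to that of the markers in WT granulosa-like cells, while that of Mlh3 was several times above it.

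The same comparison held other values in KO, where more germ cell RNA was found in somatic cells. The markers stood at a median of 16.2% of their germ-like level in the granulosa-like class, with 23.3% in the theca-like and 11.9% in the epithelia-like class. Msh5 was at 22.8%, 27.2% and 19.9% in these classes and Mlh3 at 70.7%, 75.5% and 50.2%. The other 6 genes lay between 14.3% and 18.8%, between 23.1% and 29.1% and between 11.6% and 14.0%. Cells with at least 3 UMIs of another class's markers were then left out. For somatic cells these were the germ class markers, which include Ddx4, Dazl, Mael, Sycp3 and Tex101. The filter thus itself lowers the values of the germ cell markers, which are no independent background after it. In the 709 WT granulosa-like cells that remained, the markers were at 1.43% (range 1.33 to 3.90) and Mlh3 was at 64.8% of its germ-like level (56.6 to 73.8). In KO the markers were at 1.94% (range 1.652 to 4.22) and Mlh3 at 65.0%. Msh5 was then at 5.45% in WT (3.88 to 7.46) and 8.06% in KO (6.46 to 9.95). Msh4 and Cntd1, with 16 and 14 UMIs in WT, were at 6.66% (3.805 to 10.8) and 7.44% (4.07 to 12.5), and the other 4 genes lay between 1.11% and 3.65%. Among the small somatic classes, erythroid-like cells (15 WT, 54 KO) carried the most germ cell RNA, with the markers at 37.2% in WT and 53.2% in KO, and their values for the 8 genes are not read as expression.

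**Figure D1:**
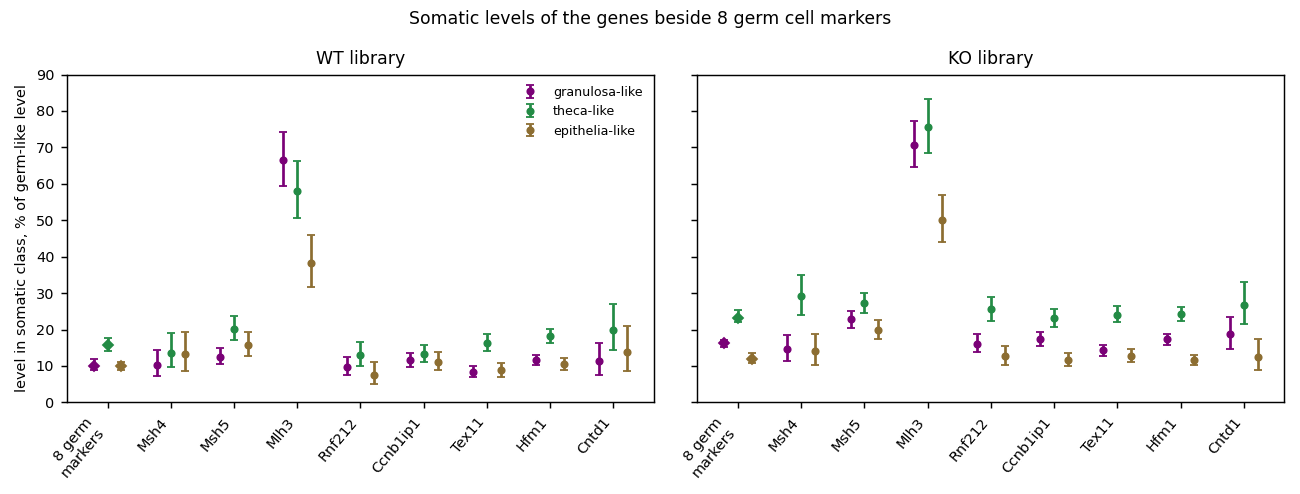
Level of each gene in the granulosa-like, the theca-like and the epithelia-like class as a percentage of its germ-like level, in the WT (left) and KO (right) library, with 95% counting intervals. The first position shows the median and range of 8 germ cell markers, and Mlh3, at 38.3% to 75.5%, stands apart from the other 7 genes.

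Across the stages, Msh4 and Msh5, the partners of the stabilising heterodimer, were both higher in early-prophase-like than in premeiotic-like cells. They separated in late-prophase-like cells. Msh4 was at 15.4 CPM (11.03 to 21.03) in WT premeiotic-like cells, 9.82 in the Rec8-led cluster, 21.6 at meiotic entry, 27.3 in early-prophase-like and 30.6 (28.7 to 32.6) in late-prophase-like cells. In KO the values were 10.2, 12.8, 20.3, 28.3 and 28.0 CPM. Msh4 was thus lower in premeiotic-like cells and the Rec8-led cluster than in both prophase stages in both libraries. Its early and late prophase levels were close with these stages, but with germ clusters made without regression they were 39.8 and 21.9 CPM in WT and 36.0 and 18.9 in KO. With cells thinned to 3000 UMIs, the WT log2 ratio of early-prophase-like over premeiotic-like cells was −0.017 in place of 0.82. Msh5 was at 47.1 CPM (39.1 to 56.2) in WT premeiotic-like cells, 49.8 in the Rec8-led cluster, 94.8 at meiotic entry, 135.6 (130.9 to 140.3) in early-prophase-like and 43.5 (41.2 to 45.8) in late-prophase-like cells. The KO values were 38.0, 47.7, 100.2, 133.4 and 44.7 CPM. The Msh5 level in late prophase was thus near that of premeiotic-like cells and the Rec8-led cluster. Its log2 ratio of late-prophase-like over early-prophase-like cells was −1.64 in WT (−1.73 to −1.55) and −1.58 in KO (−1.68 to −1.47).

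Hfm1, the helicase, had a course like that of Msh5, with a smaller difference between early and late prophase. It was at 84.9 CPM (74.1 to 96.9) in WT premeiotic-like cells, 109.2 in the Rec8-led cluster, 176.5 at entry, 260.3 (253.9 to 266.9) in early-prophase-like and 132.4 (128.4 to 136.4) in late-prophase-like cells. The KO cells had 63.6, 79.7, 160.3, 229.1 and 131.5 CPM. The late over early log2 ratio was −0.98 in WT and −0.80 in KO. Tex11, the X-linked scaffold gene, was already near its prophase level in the Rec8-led cluster. It stood at 52.9 CPM in WT premeiotic-like cells and at 114.2 in the Rec8-led cluster, then at 133.3, 122.3 and 129.4 from meiotic entry to late prophase. In KO it stood at 68.5, 128.0, 148.6, 132.9 and 118.0 CPM. After the Rec8-led cluster its level therefore moved within a narrow band.

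The RING-finger genes differed from each other. Rnf212 was at 17.4 CPM (12.7 to 23.2) in WT premeiotic-like cells, 16.7 in the Rec8-led cluster, 27.3 at entry, 49.4 in early-prophase-like and 65.1 (62.3 to 67.9) in late-prophase-like cells. The KO values were 14.5, 23.8, 39.5, 65.8 and 74.5 CPM. Its highest level was in late-prophase-like cells in both libraries, 3.74-fold above the lowest stage in WT and 5.13-fold in KO. Ccnb1ip1 varied least among the 8 genes in WT, from 75.3 CPM in premeiotic-like cells to 123.0 in late-prophase-like cells, with 89.2 in the Rec8-led cluster, 96.9 at entry and 93.96 in early-prophase-like cells. In KO it was at 81.0, 111.5, 112.5, 94.2 and 118.4 CPM. Cntd1 was at 11.97 CPM in WT premeiotic-like cells, from 31 UMIs, and highest in the Rec8-led cluster at 31.9, with 19.3, 26.3 and 20.2 from entry to late prophase. KO levels were 19.5, 28.0, 21.2, 24.7 and 19.5 CPM. Becn1, whose exons overlap it, was at 71.0, 62.5, 70.4, 87.0 and 78.8 CPM along the same cell groups in WT and at 63.9, 70.7, 71.6, 86.1 and 76.8 in KO, and the part of its reads in the Cntd1 values was not tested.

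Mlh3, which acts at resolution, was lowest where Stra8-led cells enter meiosis and highest in late prophase. In WT it was at 26.2 CPM (20.4 to 33.3) in premeiotic-like cells, 16.7 in the Rec8-led cluster, 10.1 (8.17 to 12.3) at entry, 25.6 (23.6 to 27.7) in early-prophase-like and 60.7 (58.0 to 63.5) in late-prophase-like cells. In KO it was at 29.3, 19.6, 12.4, 28.4 and 57.6 CPM. The highest stage was 6.01-fold above the lowest in WT and 4.64-fold in KO. Late-prophase-like cells held 2 clusters, and in the larger one alone (1962 WT, 2224 KO) Mlh3 was at 59.7 CPM in WT and 57.3 in KO. The late over early log2 ratio of Mlh3 was 1.24 in WT (1.11 to 1.38) and 1.02 in KO (0.88 to 1.16), but it turned to −0.36 and −0.70 when germ cells were clustered without regressing out depth and the mitochondrial and ribosomal shares. In that clustering Mlh3 stood at 53.7 CPM in WT early-prophase-like and 41.9 in late-prophase-like cells, so its place late in prophase depends on how the stages are drawn.

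Over the 8 genes together, the step from premeiotic-like to early-prophase-like cells had a median log2 ratio of 1.17 in WT and 1.22 in KO, against −0.06 and −0.05 over all genes. At least 2-fold higher were 5 of 8 genes in WT (Msh5, Rnf212, Tex11, Hfm1 and Cntd1), beside 8.14% of all genes with at least 100 UMIs. In KO 4 of 8 were (Msh4, Msh5, Rnf212 and Hfm1), beside 9.32% of all genes. Msh5, Rnf212 and Hfm1 passed in both libraries. With the Rec8-led cluster counted as premeiotic-like, the medians were 0.81 and 0.79. Over the alternative settings the WT ratio ran from 0.32 to 1.27 for Tex11, from −0.081 to 1.76 for Cntd1 and from −0.017 to 1.24 for Msh4. Which of these genes pass in WT thus depends on the settings, and the differing names are not read as a difference between the libraries. From early-prophase-like to late-prophase-like cells the median was 0.12 in WT and −0.09 in KO. At least 2-fold higher was 1 of 8 genes, Mlh3, beside 19.3% of all genes in WT and 12.8% in KO. At least 2-fold lower was 1 of 8, Msh5, beside 6.92% of all genes in WT and 6.33% in KO. With 1 gene in each direction, these counts describe Mlh3 and Msh5 and not the 8 genes as a group.

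**Figure D2:**
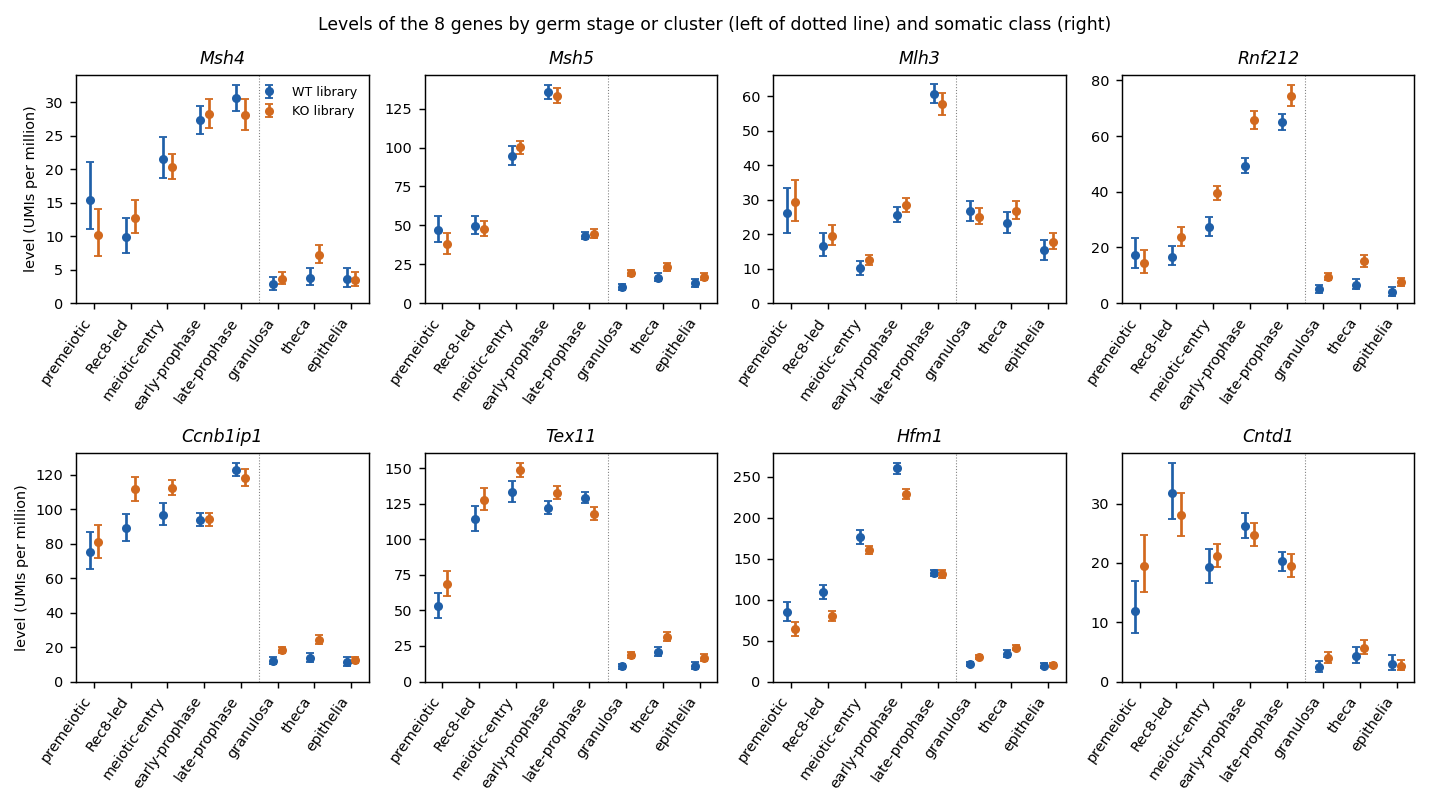
Level of each gene in CPM (vertical axis, starting at 0, scaled per gene) in 4 germ stages and the Rec8-led cluster, and right of the dotted line in 3 somatic classes, for the WT and KO library, with exact Poisson 95% intervals. Msh5 and Hfm1 peak in early-prophase-like cells, Rnf212 and Mlh3 in late-prophase-like cells, and Mlh3 alone keeps a somatic level near its germ cell levels.

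The balance within pairs of genes shows these courses without the total UMI count of the cells. Of the UMIs of Msh4 and Msh5 together, Msh5 made up 75.3% in WT premeiotic-like cells (67.9 to 81.7), 83.5% in the Rec8-led cluster, 81.5% at entry, 83.2% (82.0 to 84.4) in early-prophase-like and 58.7% (56.7 to 60.7) in late-prophase-like cells. In KO the shares were 78.9%, 78.9%, 83.1%, 82.5% and 61.5%. The Msh5 share was therefore lowest in late-prophase-like cells in both libraries, and it was also lower in WT premeiotic-like than in WT early-prophase-like cells. Of the UMIs of Mlh3 and Hfm1, Mlh3 made up 23.6% in WT premeiotic-like cells, 13.3% in the Rec8-led cluster, 5.41% at entry, 8.96% in early-prophase-like and 31.4% in late-prophase-like cells. In KO it made up 31.6%, 19.7%, 7.18%, 11.03% and 30.5%. Of the UMIs of Rnf212 and Ccnb1ip1, Rnf212 made up 18.8%, 15.8%, 21.98%, 34.4% and 34.6% along the same order in WT, and 15.2%, 17.6%, 26.0%, 41.1% and 38.6% in KO. The Rnf212 share was thus higher in prophase than before it, with a higher prophase share in KO.

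**Figure D3:**
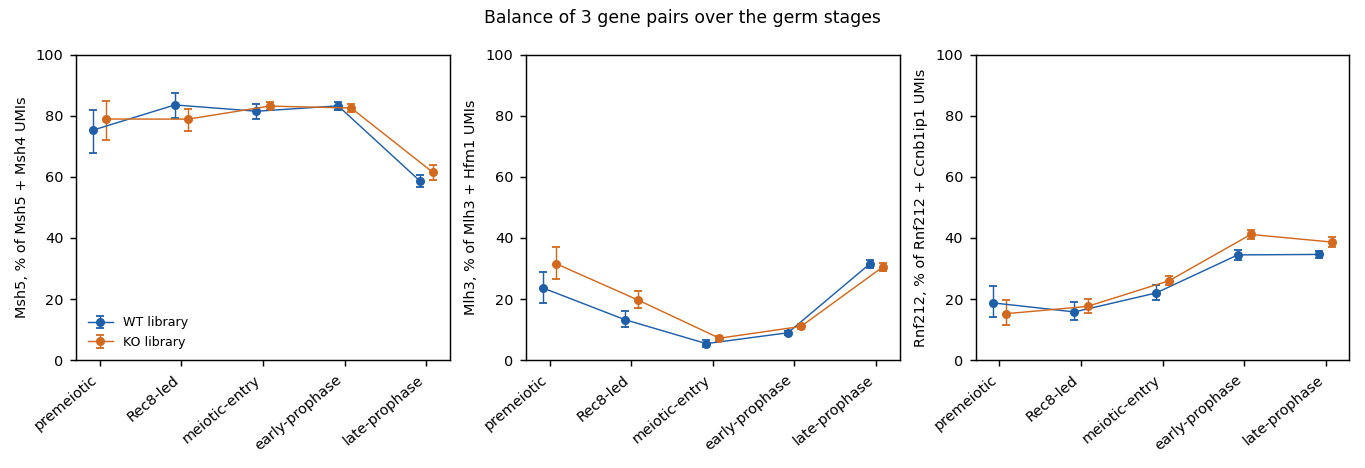
Share of the first gene among the UMIs of a pair, in percent, along the germ stages and the Rec8-led cluster for Msh5 with Msh4, Mlh3 with Hfm1 and Rnf212 with Ccnb1ip1, with Clopper-Pearson 95% intervals. The Msh5 share is 83.2% in early-prophase-like and 58.7% in late-prophase-like WT cells, and the KO points run beside the WT points.

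Detection in single cells followed depth. At least 1 Hfm1 UMI was found in 87.6% of WT germ-like cells (median 17116 UMIs) and 77.9% of KO germ-like cells (median 11325), against 13.6% and 14.1% of granulosa-like cells (medians 12592 and 8473). With every cell thinned to 3000 UMIs, which left out 0 cells, these shares were 41.4% and 39.5% against 3.91% and 4.67%. Msh4 was found in 36.3% of WT and 24.6% of KO germ-like cells before thinning and in 8.64% and 7.67% after it, against 0.543% and 0.845% of granulosa-like cells. For Mlh3 the thinned shares were 11.2% and 10.6% in germ-like cells and 7.71% and 7.30% in granulosa-like cells. For the other 5 genes the thinned germ-like shares ran from 5.67% (Cntd1) to 30.9% (Tex11) in WT and from 6.01% to 31.5% in KO. A cell of the germ-like group carried a median of 5 of the 8 genes in WT and 4 in KO, and means of 1.5996 and 1.61 after thinning, against 0.212 and 0.256 in granulosa-like cells. Among the stages the thinned mean was highest in early-prophase-like cells, at 1.79 in WT and 1.83 in KO, and lowest in premeiotic-like cells, at 0.913 and 0.891. The summed level of the 8 genes followed the same order, from 331 CPM in WT premeiotic-like cells to 741 in early-prophase-like cells, with 605 in late-prophase-like cells.

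Whether the loss of GR goes with a change of these transcripts was asked first over all germ-like cells. None of the 8 genes differed between KO and WT by more than 0.25 on the natural-log scale of UMIs per 10000, with 1 added before the log, which is the size limit used by the study, beside 0.174% of 13817 genes. Msh4 and Cntd1 could not pass this limit by being lower in KO, since their complete absence there would give 0.244 and 0.196. None differed by a log2 ratio of more than 1, beside 1.13% of them. The median log2 ratio of KO over WT was −0.0019, against −0.0543 over all genes, and the 8 values ran from −0.17 to 0.20. Rnf212 was at 58.9 CPM in KO and 51.4 in WT, a log2 ratio of 0.20 (0.15 to 0.25). Mlh3 was at 35.5 CPM in KO and 40.0 in WT, with −0.17 (−0.23 to −0.11), Msh4 at 24.8 and 27.6, with −0.15, and Hfm1 at 171 and 187, with −0.13. Msh5 was at 85.1 in KO and 81.3 in WT, Ccnb1ip1 at 105.2 and 103.6, Tex11 at 130.8 and 127.8, and Cntd1 at 21.3 and 21.7, all within 0.07 on the log2 scale. These intervals do not cover the spread between embryos, litters or captures, which is unknown here.

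The mix of stages differed between the libraries. Meiotic-entry-like cells were 15.3% of KO and 6.77% of WT germ-like cells, and late-prophase-like cells were 21.9% and 30.1%. With the KO stage levels weighted by the WT stage shares, the median over the 8 genes was −0.0051. Mlh3 then had a log2 ratio of 0.14 in place of −0.17, Msh4 −0.03 in place of −0.15, Hfm1 −0.10 and Rnf212 0.31. This weighting sets all stage shares at once, and the part of any single stage was not tested.

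Within stages, none of the members with at least 100 UMIs differed between KO and WT by a log2 ratio of more than 1. This held for 5 members in premeiotic-like cells, beside 0.344% of all genes past the limit, and for all 8 at meiotic entry, in early-prophase-like and in late-prophase-like cells, beside 0.835%, 0.566% and 0.909%. The medians were 0.11, 0.14, 0.03 and −0.06 in this order. In the premeiotic-like cells Msh4, Rnf212 and Cntd1 had under 100 UMIs over both libraries. The 8 genes were also within the limit in the Rec8-led cluster, beside 0.4% of all genes past it, with a median of 0.20.

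Rnf212 and Hfm1 held one direction over most stages. So did Tex11, Mlh3 and Ccnb1ip1, each higher in KO in every group before late prophase. For Ccnb1ip1 the early-prophase-like difference was near 0. Rnf212 was higher in KO in the Rec8-led cluster with a log2 ratio of 0.51 (0.15 to 0.87), at entry with 0.53 (0.33 to 0.74), in early-prophase-like cells with 0.42 (0.31 to 0.52) and in late-prophase-like cells with 0.20 (0.10 to 0.29). In premeiotic-like cells, with 50 KO and 45 WT UMIs, the value was −0.26 (−0.87 to 0.36). Hfm1 was lower in KO in premeiotic-like cells with −0.42 (−0.69 to −0.14), in the Rec8-led cluster with −0.45 (−0.61 to −0.30), at entry with −0.14 and in early-prophase-like cells with −0.18 (−0.24 to −0.13). In late-prophase-like cells it was −0.01 (−0.08 to 0.06). The Rnf212 difference at entry and in both prophase stages kept its sign under each alternative processing run, between 0.05 and 0.57 on the log2 scale.

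The other 6 genes showed smaller or mixed differences where they had at least 100 UMIs over both libraries. Tex11 was higher in KO in premeiotic-like cells (0.37), in the Rec8-led cluster, at entry (0.16) and in early-prophase-like cells (0.12). It was lower in late-prophase-like cells (−0.13). Ccnb1ip1 was at 0.32 in the Rec8-led cluster and 0.22 at entry, and within 0.06 of 0 in both prophase stages. Msh5 lay between −0.02 and 0.08 from entry on, and at −0.31 in premeiotic-like cells (−0.68 to 0.06). Mlh3 lay at 0.16, 0.30, 0.15 and −0.08 over the 4 stages, with an interval reaching from −0.04 to 0.65 at entry. For Msh4 and Cntd1, the genes with few UMIs, intervals in each named stage from entry on included 0. In premeiotic-like cells, with under 100 UMIs over both libraries, Msh4 was at −0.60 and Cntd1 at 0.70. These values were larger in size than those of Rnf212 and Hfm1, and both took the other sign under some alternative settings.

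**Figure D4:**
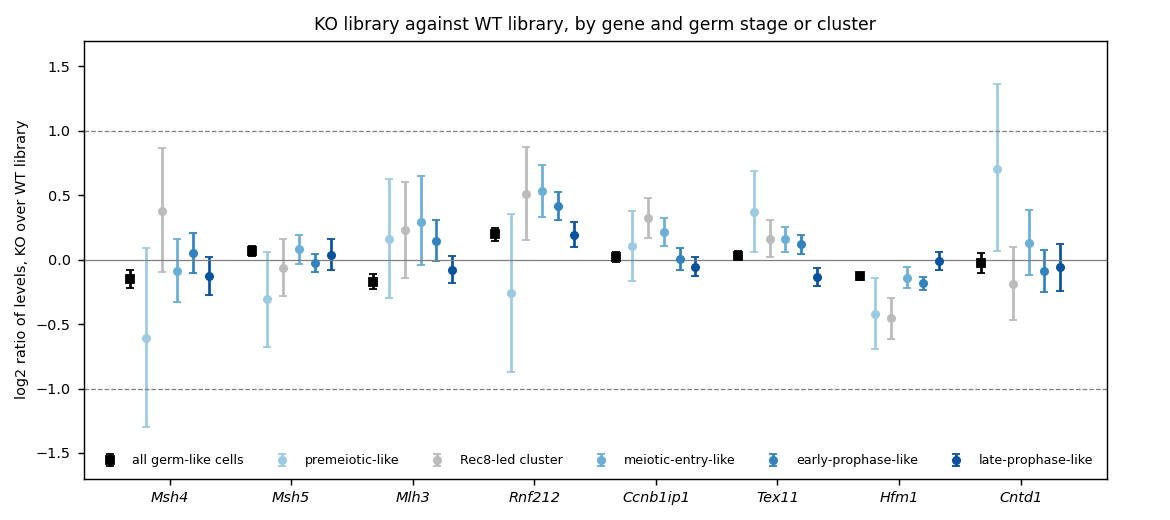
Log2 ratio of KO over WT level for each gene in all germ-like cells, in 4 germ stages and in the Rec8-led cluster, with exact 95% intervals for counts. Dashed lines mark a 2-fold difference, and all points lie between them, Rnf212 above 0 from the Rec8-led cluster on and Hfm1 at or below 0.

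In somatic cells the KO level of the 8 genes was mostly above the WT level, with a median log2 ratio of 0.66 in granulosa-like cells, 0.54 in theca-like cells and 0.58 over all somatic-like cells. Rnf212 was at 9.51 CPM in KO and 4.99 in WT granulosa-like cells, Msh5 at 19.4 and 10.2, and Tex11 at 18.7 and 10.6. Mlh3 differed least, at 25.1 and 26.6. These differences moved with the germ cell markers, whose level in granulosa-like cells relative to germ-like cells was 16.2% in KO and 10.0% in WT, and their part in the result was not tested.

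The genes with the most similar course were sought over 9 germ clusters in each library, 18 points in all, among 9109 genes, by Pearson's r of log2(CPM + 1). The unnamed cluster with somatic markers was among the 9. The points share libraries, depth and the total of each cluster, so r is a description. Among the members themselves, Msh4 was most like Rnf212 (r = 0.87) and Msh5 most like Hfm1 (0.86), while Msh5 and its partner Msh4 had 0.54 and Msh5 and Mlh3 −0.19. Over all genes, Hfm1 was most like Ccdc79 (0.97), which encodes a telomere-attachment protein of meiotic chromosomes, then Hgs and Trappc8. Msh4 was most like Atp6v1c1 (0.97), Tbk1 and Topbp1, and Msh5 like Acss2 (0.98), Garnl3 and Cdk11b. Mlh3 was most like Enpp4 (0.99), Odf2 and Tob1, and Rnf212 like Gm14167 (0.99), 1810043G02Rik and Hspa5. Tex11 was most like Dhx40 (0.95), Gtf2h2 and Gmps. Ccnb1ip1 and Cntd1 had weaker neighbours, Tsg101 (0.89), Bhlhb9 and Hus1b for the former and Xrcc6 (0.85), Gps1 and Kif4 for the latter.

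The genes were then set beside 22 others of the same processes. Of 4 other genes of the crossover route, 3 were at least 2-fold higher in WT germ-like than in granulosa-like cells, beside 29.2% of all genes, with a median log2 ratio of 3.45. Shoc1, a partner of TEX11, had the largest value of the 22 at 3.59, with 69.8 CPM in WT germ-like cells, followed by Prr19 at 3.46, which acts with CNTD1. Of 6 mismatch repair genes 3 were at least 2-fold higher, beside the same 29.2%, with a median of 0.79. The Mlh3 value of 0.59 lay nearer to this median than to that of the crossover genes. The lists overlapped: the crossover gene Cdk2 was at 0.23, and the mismatch repair genes ran from −0.05 (Msh3) to 2.61 (Exo1). Of 12 genes of other joint-molecule routes 9 were at least 2-fold higher and 2 at least 2-fold lower, beside 29.2% and 29.1% of all genes, the nuclease gene Mus81 at −2.21 and Slx1b at −1.41. Mus81, the nuclease of the crossover route that does not use MSH4 and MSH5, was at 5.70 CPM in WT germ-like cells.

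Between WT stages, 2 of the 22 genes were at least 2-fold higher in early-prophase-like than in premeiotic-like cells, Shoc1 with 1.47 and Spo16 with 1.31, whose proteins form a complex that binds branched DNA. This count stands beside 8.14% of all genes. Rmi2 with −1.91 and Mus81 with −1.10 were at least 2-fold lower, beside 13.8% of all genes. From early-prophase-like to late-prophase-like cells, Mus81 was at least 2-fold higher with 2.34, and the mismatch repair gene Pms2 with −1.36 and Shoc1 with −1.11 were at least 2-fold lower, beside 19.3% of all genes higher and 6.92% lower. With 1 or 2 genes in each direction, these counts describe the genes named and not the 22 as a group. Of these genes, Spo16, Rmi2 and Pms2 were named after their values at these steps were seen. None of the 22 differed between KO and WT germ-like cells by a log2 ratio of more than 1, and the value farthest from 0 was −0.32 for Mus81 (−0.48 to −0.15). The median over the 22 was −0.074, and that over all genes −0.05.

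**Figure D5:**
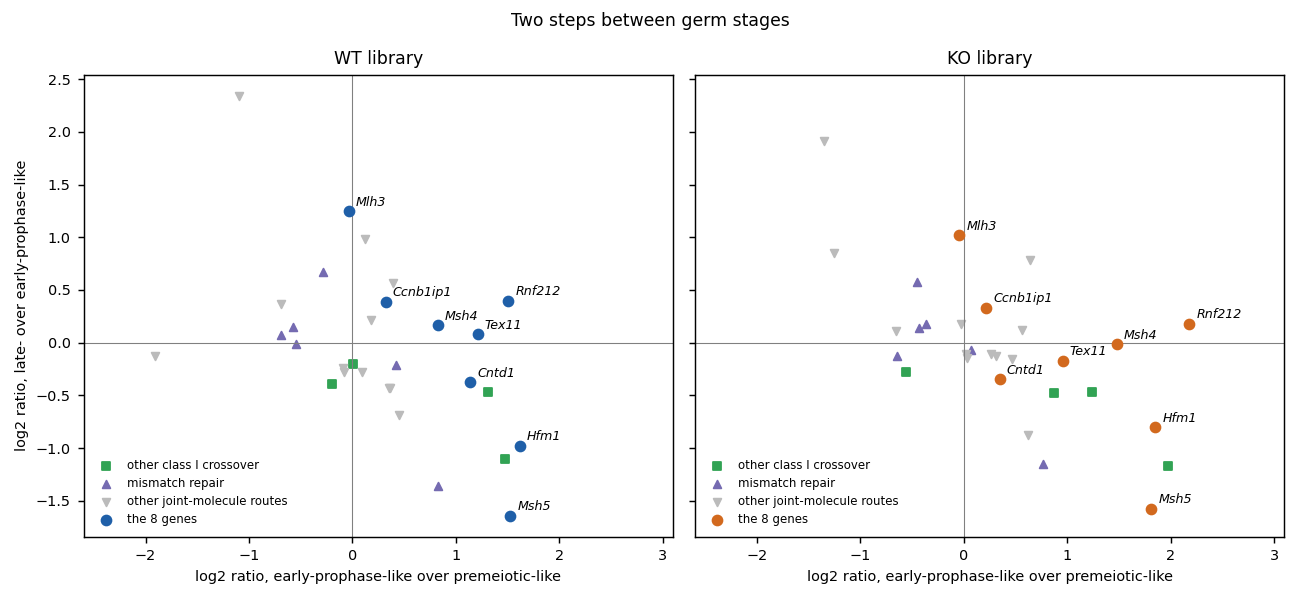
Log2 ratio of early-prophase-like over premeiotic-like cells (horizontal axis) against that of late-prophase-like over early-prophase-like cells (vertical axis) for the 8 genes and for other crossover, mismatch repair and joint-molecule genes, in the WT (left) and KO (right) library. Both axes share the early-prophase-like level, so points can lean towards the lower right without any link between the steps, and Msh5 is the lowest of the 8 genes in both libraries, while Mlh3 lies near 0 on the horizontal axis and above 1 on the vertical axis.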

How the data were processed

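Single-cell transcripts were measured in 1 KO and 1 WT library of E15.5 ovaries with a 3′ droplet kit. The authors deposited a matrix of UMI counts for each library, with genes as rows and cell barcodes as columns, made with Cell Ranger (3.0.2 per the file headers). The submitters' processing notes name mm10 and Seurat 3.2.3. Strand and multimapping settings of the counting are not given in the sources used here. Of 27998 gene identifiers 27645 were found in GENCODE M21.

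Cells were kept by the study's limits (WT over 1500 and under 6500 genes, over 5500 and under 40000 UMIs; KO over 1200 and under 5500 genes, over 3000 and under 30000 UMIs; both under 10% mitochondrial UMIs). No doublet caller was applied in the values reported. Counts were scaled to 10000 per cell, log-transformed and reduced to 2000 variable genes without the 8 genes or the pathway genes compared with them. Depth, gene number and mitochondrial and ribosomal shares were regressed out. Leiden clustering (leidenalg 0.10.2, resolution 0.5) used 30 principal components and 20 neighbours with shared-neighbour weights, in Python 3.11.15 with scanpy 1.11.5, numpy 2.4.6 and scipy 1.17.1. A cluster was named only with at least 3 markers of a class or stage, as X-like, and rebuilt names can differ from those of the study. A germ cluster took the stage with the highest mean log2 fold of its markers. It stayed unnamed where its 10 leading genes held more markers of another stage or any somatic marker.

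UMIs were summed per class and library and given as CPM, and a ratio was taken only where its 2 sides together held at least 100 UMIs for the gene, unless the text says otherwise. No test was possible with 1 library per group. The interval code was tested on simulated counts: for the germ-like KO over WT comparison of 13817 genes, 200 of them changed, 95.35% of intervals held the true value. The members and all gene and marker lists were chosen with earlier results of these data known. All 8 members were named, with the 3 genes most like each among those with at least 1000 UMIs, and the 2 largest and 2 lowest pathway genes in WT germ-like over granulosa-like cells. The neighbour weights, the naming by mean fold and the unnamed Rec8-led cluster were chosen after clusters and the members' levels in them had been seen, and the earlier forms were run as alternatives. A gene of the compared pathway lists is not reported here. No sample column was left out of use.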

Additional observations from a re-analysis of the deposited data

Results flagged for a closer look

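Tex11 differed in direction between stages and between libraries. Its log2 ratio of KO over WT was 0.37 in premeiotic-like cells, 0.16 in meiotic-entry-like cells and 0.12 in early-prophase-like cells, and −0.13 in late-prophase-like cells. Its log2 ratio of late-prophase-like over early-prophase-like cells was 0.082 in WT and −0.17 in KO. The difference between these values was not tested, since each genotype has 1 library. In each case the counting interval lay on 1 side of 0. This does not set Tex11 apart: for late-prophase-like over early-prophase-like cells, the intervals of 5 members lay above 0 and of 3 below it in WT. In KO these numbers were 3 and 4. The premeiotic-like value turned negative when every cell was thinned to 3000 UMIs, and the early-prophase-like value turned negative with germ clusters at resolution 1.0. The WT value of late-prophase-like over early-prophase-like cells turned negative under the thinning and with germ clusters made without regression, and the KO value turned positive at resolution 1.0.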

How the results depend on the processing

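All settings here leave 1 library per group, so they show how the summed values move and carry no test. The median germ-like over granulosa-like log2 ratio of the 8 genes was 3.67 in WT with common cell limits. It was 3.89 in WT and 4.19 in KO without Scrublet doublets, 4.49 and 4.51 without cells carrying another class's markers, 3.56 and 3.23 as a mean over cells, and 3.58 and 3.24 with cells thinned to 3000 UMIs. The median early-prophase-like over premeiotic-like ratio was 0.72 in WT and 0.74 in KO with fuzzy neighbour weights, 0.77 and 0.68 with stages named by number of markers, and 0.81 and 0.79 with the Rec8-led cluster kept as premeiotic-like. These 3 settings were added after the data had been seen. The median late-prophase-like over early-prophase-like ratio was −0.59 in WT and −0.81 in KO for germ clusters without regression, and 0.087 in KO at resolution 1.0. The median share of germ-like cells with a UMI was 17.8% in WT and 19.1% in KO after thinning, from 60.7% and 51.8%. Of 168 ratios of single genes, 48 had the other sign under at least 1 setting, 40 of them with a log2 ratio under 0.5 in size. Of the ratios of 2-fold or more, 3 did: Mlh3 for late-prophase-like over early-prophase-like cells without regression (−0.36 in WT, −0.70 in KO), and Cntd1 for early-prophase-like over premeiotic-like WT cells with stages named by number of markers (−0.081). The causes were not tested. In 157 other cases the medians and counts moved by less than their counting error or by less than 1.5 times, and the number of genes past either size limit between KO and WT germ-like cells was 0 under each setting. Stage naming by number of markers left no meiotic-entry-like cells to compare. No paired analysis was possible because each group holds 1 library and the labels give no replicate numbers. Depth limits premeiotic-like cells most, where Msh4, Rnf212 and Cntd1 had under 100 UMIs over both libraries.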
